A study of Mus musculus with 6 samples.

Results

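Granzymes are serine proteases that natural killer (NK) cells and cytotoxic T cells store in secretory granules and deliver into target cells. Perforin, released from the same granules, forms the pores through which granzymes reach the cytosol of the target, where granzyme B cleaves caspases and other death substrates. The killer cell protects itself with intracellular serpins, which trap granzymes that leak into its own cytosol. In the mouse liver, granzymes and perforin are made by conventional NK cells and, in a different mix, by tissue-resident type 1 innate lymphoid cells (ILC1).

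Here 8 genes of this system were described out of 55414 in the deposited table, chosen by gene name: the granzymes Gzma, Gzmb, Gzmc, Gzmk and Gzmm, the perforin gene Prf1, and the serpins Serpinb9 and Serpinb6b. Each name matched 1 gene, and all 8 genes passed the filter on low counts. Messenger RNA had been sequenced from liver NK cells of wild-type mice at day 3, in 3 libraries after metformin, a drug that lowers blood glucose, at 200 mg per kg for 3 days, and in 3 control libraries after phosphate-buffered saline (PBS). No gate for the NK cells is given in the sources. They also do not state that each library is a different mouse, and every p-value here therefore describes the spread among these libraries, which could be technical. Levels are given as CPM, a read count scaled to the library's total and its trimmed mean of M-values (TMM) factor, for a gene across libraries. Between genes they are given as the authors' TPM, which is also per length.

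The libraries held 22152167 to 24266803 estimated reads with metformin and 24838302 to 30161214 in the controls. Metformin library 3 stood apart: its mean correlation with the other libraries in log2 CPM, across genes, was 0.971, against 0.978 to 0.981 for the other 5, and its mitochondrial reads were 0.720% of the total, against 0.429% to 0.515%. Relative to the mean of all libraries, expression fell with gene length in metformin library 3 (Spearman correlation across genes -0.43). The correlation was -0.10 and 0.15 in metformin libraries 1 and 2, and 0.067, 0.30 and 0.35 in control libraries 1, 2 and 3. The trend was thus lower on the metformin side and not confined to metformin library 3, although metformin library 2 lay above control library 1. Results were therefore also computed without this library and with the gene length trend removed, and those values are given where they differ clearly.

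The 5 granzymes are set out first by the coding sequence around the catalytic serine, because these genes arose as copies of each other and reads can be assigned wrongly between copies that are too alike. Each line is 48 bases of coding sequence from the GENCODE M21 transcripts (GRCm38), with the 6 codons that include the active-site serine in capitals.
Gzma (chromosome 13): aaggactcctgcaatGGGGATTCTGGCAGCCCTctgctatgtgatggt
Gzmk (chromosome 13): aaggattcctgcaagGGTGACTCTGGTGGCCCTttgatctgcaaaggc
Gzmb (chromosome 14): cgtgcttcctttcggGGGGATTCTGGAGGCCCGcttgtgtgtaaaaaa
Gzmc (chromosome 14): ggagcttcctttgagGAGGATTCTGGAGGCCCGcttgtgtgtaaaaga
Gzmm (chromosome 10): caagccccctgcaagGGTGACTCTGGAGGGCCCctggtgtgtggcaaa
Gzmb and Gzmc were identical at 42 of the 48 bases, Gzma and Gzmk at 35, and Gzma and Gzmb at 27. Over the whole coding sequence Gzmb and Gzmc were 76.7% identical, and Gzma and Gzmk 58.2%. The longest run of bases shared by their longest transcripts, untranslated ends included, was 49 for Gzmb and Gzmc and 13 for Gzma and Gzmk. Both pairs lie close together in the genome: in the table's coordinates 24181 bases separate Gzmb from Gzmc on chromosome 14 and 70626 bases separate Gzma from Gzmk on chromosome 13.

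The table places the genes on 3 chromosomes, in coordinates that are not those of GRCm38. Gzmb (ENSMUSG00000015437.6) lies at 56496295 to 56499717 and Gzmc (ENSMUSG00000079186.4) at 56468898 to 56472113 on the minus strand of chromosome 14. Gzma (ENSMUSG00000023132.9) lies at 113230359 to 113237515 and Gzmk (ENSMUSG00000042385.15) at 113308142 to 113362442 on the minus strand of chromosome 13, far from the serpin cluster of the same chromosome. There Serpinb6b (ENSMUSG00000042842.12) lies at 33149192 to 33163050 and Serpinb9 (ENSMUSG00000045827.11) at 33187233 to 33201940, both on the plus strand. Prf1 (ENSMUSG00000037202.7), at 61133612 to 61140459, and Gzmm (ENSMUSG00000054206.3), at 79524854 to 79531095, are both on the plus strand of chromosome 10 but far apart.

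Windows of 50 bases in a transcript were used to see how much of each gene another gene could claim. None of the 50-base windows of Gzma, Gzmb, Gzmk, Gzmm or Prf1 occurred in a GENCODE M21 transcript of another gene. In Gzmc 4.14% of the windows did, shared with Gzme, Gzmg and Gzmd, in Serpinb6b 3.12% and in Serpinb9 0.38%. For Gzmb the result depends on the window, since its longest run shared with Gzmc was 49 bases and shorter windows were not tried. By this measure the values of Gzmc, Serpinb6b and Serpinb9 are somewhat less certain than those of the other 5 genes, and their counts were fractional in 0, 1 and 2 of the 6 libraries.

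Granzyme A and granzyme B were among the most abundant messages of these cells. Gzma, a tryptase whose protein cleaves after basic residues, had 9689.9, 10861 and 12153 TPM in metformin libraries 1, 2 and 3, against 10732, 11717 and 10342 TPM in control libraries 1, 2 and 3, and it ranked 2 to 4 among 21884 protein-coding genes of the table in every library. Gzmb had 3148, 4298 and 3731 TPM with metformin, against 2704, 3388 and 2587 TPM in the controls, and ranked 10 to 18. In both genes the TPM of the groups overlapped.

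Perforin followed, and the remaining granzymes were far less abundant. Prf1 had 1073, 1161 and 819 TPM in metformin libraries 1, 2 and 3, against 1211, 1319.8 and 1296.5 TPM in control libraries 1, 2 and 3, so that every metformin library lay below every control library. Gzmc, a granzyme of the Gzmb cluster that in mice marks a subset of ILC1, had 149.7, 169.8 and 201 TPM with metformin, against 145, 173 and 131 TPM in the controls. Gzmm, a granzyme that cleaves after methionine and leucine, had 10.3, 7.84 and 11.8 TPM, against 11.7, 14.2 and 14.1 TPM in the controls. Gzmk, a second tryptase, had 6.16, 6.16 and 8.32 TPM, against 7.05, 7.35 and 8.09 TPM in the controls. The groups overlapped in these 3 granzymes.

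The serpins lay below perforin. Serpinb9, the mouse counterpart of the human granzyme B inhibitor PI-9, had 305, 368 and 275 TPM in metformin libraries 1, 2 and 3, against 353, 387 and 381 TPM in control libraries 1, 2 and 3. Serpinb6b, a serpin reported to inhibit granzyme A, had 171, 191 and 219 TPM with metformin, against 196, 219 and 201 TPM in the controls. The groups overlapped in both.

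**Figure D1:**
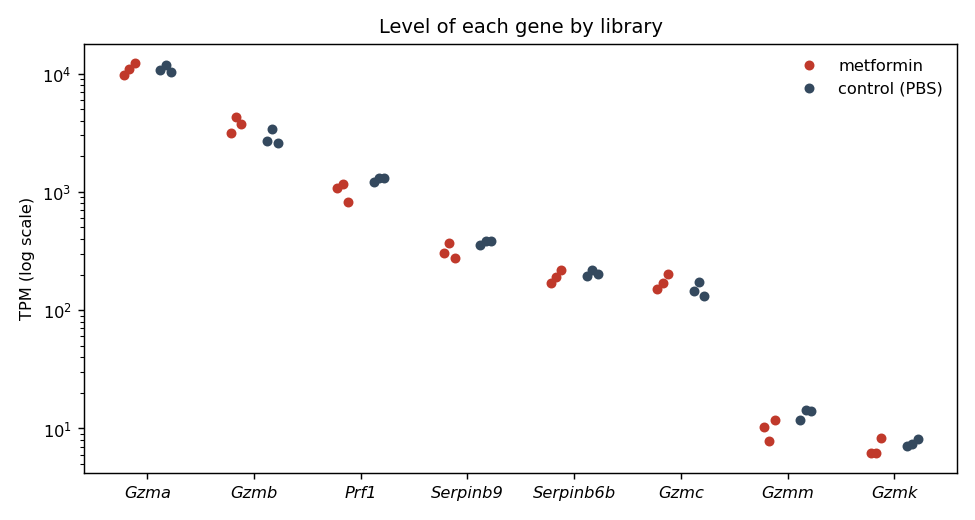
Level of each of the 8 genes in TPM (log axis) in the 3 metformin and 3 control libraries, 1 point per library, in falling order of the mean. The levels span more than 3 orders of magnitude, from Gzma at 9689.9 to 12153 TPM to Gzmk at 6.16 to 8.32 TPM, and the groups lie close to each other beside these gaps.

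By mean TPM over the 6 libraries the order was Gzma, Gzmb, Prf1, Serpinb9, Serpinb6b, Gzmc, Gzmm and Gzmk. Gzma was 3.30 times Gzmb, Gzmb 2.89 times Prf1 and Prf1 3.33 times Serpinb9, and in each of these pairs the lowest library of the higher gene lay above the highest library of the lower gene. The same held for Serpinb9 over Serpinb6b (1.73 times) and for Gzmc over Gzmm (13.8 times). Serpinb6b and Gzmc overlapped between libraries, as did Gzmm and Gzmk, so neither of these pairs can be ordered beyond its spread. The other 5 granzyme genes of the chromosome 14 cluster were at or near 0: Gzmd, Gzme, Gzmf and Gzmg had at most 3 reads in any library, and Gzmn had 0 reads in all 6.

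The comparison of metformin with PBS asked how the drug changed expression in liver NK cells, and none of the 8 genes passed it. In bulk RNA fewer cells of a type and less RNA per cell cannot be told apart, and this holds for every value given here. Over all 15527 genes tested, edgeR's quasi-likelihood test with Benjamini-Hochberg adjustment called 0 genes at an adjusted p of 0.05, limma-voom 0, and DESeq2 299, a background of 0% for edgeR and 2.51% for DESeq2 (1.23% higher and 1.28% lower). Of the 8 genes edgeR and DESeq2 each called 0. At an unadjusted p under 0.05 edgeR gave 2 of the 8, Gzmb and Gzmc, both higher, where the background was 5.29% of all genes in that direction and 10.4% in either. Without metformin library 3, 1 of the 8 remained at that threshold, Gzmb, where the background was 4.90% higher and 6.51% lower. With the gene length trend removed 1 of the 8 also remained, again Gzmb (background 4.59% higher and 5.29% lower). The groups did not overlap in CPM in 2 of the 8, Gzmb higher and Prf1 lower, against a background of 19.1% (9.49% higher and 9.63% lower), so that count is near the background. The median log2 fold change of the 8 genes was 0.0078, beside 0.0053 over all genes tested. The median of the 8 was -0.11 without metformin library 3 and -0.079 with the gene length trend removed.

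Gzmb had the largest fold change of the 8 in the edgeR fit, though Gzmm was larger in size on log2 TPM, with the gene length trend removed and without metformin library 3, and Gzmc without metformin library 2. Gzmb had 2809, 3667 and 3558.5 CPM in metformin libraries 1, 2 and 3, against 2284, 2788 and 2076 CPM in control libraries 1, 2 and 3. Every metformin library was thus above every control library, but metformin library 1 exceeded control library 2 only narrowly, and in TPM it fell below it. The mean was 3345 ± 467 CPM with metformin and 2383 ± 366 CPM in the controls (SD, n = 3 each), which on the log2 scale is a fold change of 0.49 (SE 0.14, 95% interval 0.16 to 0.82; edgeR adjusted p = 0.353). By its unadjusted p of 0.0091 Gzmb was number 399 among the 15527 genes. DESeq2 gave an adjusted p of 0.060, and with the gene length trend removed the log2 fold change was 0.37 (SE 0.14; edgeR adjusted p = 0.459).

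Gzmc, in the same cluster as Gzmb, had 74.1, 78.7 and 103.6 CPM in metformin libraries 1, 2 and 3, against 65.0, 75.2 and 56.4 CPM in control libraries 1, 2 and 3. The groups overlapped, since metformin library 1 lay below control library 2. The log2 fold change was 0.38 (SE 0.16; edgeR adjusted p = 0.472), 0.22 without metformin library 3 and 0.12 with the gene length trend removed.

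Gzma had 4425, 4748 and 5931 CPM in metformin libraries 1, 2 and 3, against 4578, 4745 and 4164 CPM in control libraries 1, 2 and 3. Metformin library 3 was the highest and the other libraries overlapped. The log2 fold change was 0.16 (SE 0.12, 95% interval -0.12 to 0.44; edgeR adjusted p = 0.654), but 0.023 without metformin library 3 and -0.061 with the gene length trend removed, so its sign depended on the scaling. Gzmk had 84 to 123 reads in a library with metformin and 103 to 130 in the controls, and its log2 fold change of 0.0023 (SE 0.27, 95% interval -0.61 to 0.62) also changed sign with the scaling. Gzmm had 140 to 218 reads in the metformin libraries and 233 to 299 in the control libraries, before scaling to the library's total. In CPM it had 8.19, 5.84 and 9.55 in metformin libraries 1, 2 and 3, against 8.58, 10.1 and 9.86 in control libraries 1, 2 and 3, and the groups overlapped. Its log2 fold change was -0.28 (SE 0.23, 95% interval -0.81 to 0.25; edgeR adjusted p = 0.684), and it was -0.11 without metformin library 2 and -0.45 without metformin library 3. For both low granzymes these intervals are wide and span both directions, so these libraries settle neither the direction nor the size of a change.

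Prf1 had 1754, 1802 and 1427 CPM in metformin libraries 1, 2 and 3, against 1852, 1988 and 1901 CPM in control libraries 1, 2 and 3. All 3 metformin libraries were below all 3 control libraries, with metformin library 3 the lowest by far. The mean was 1661 ± 204 CPM with metformin and 1914 ± 68.6 CPM in the controls (SD, n = 3 each), or -0.20 on the log2 scale (SE 0.11, 95% interval -0.45 to 0.045; edgeR adjusted p = 0.540). It was -0.11 without metformin library 3 and -0.34 on the deposited TPM, and it stayed negative in all 17 alternatives tried.

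Neither serpin passed the test, and in both the libraries of the groups overlapped. Serpinb9 had 627, 753 and 634 CPM in metformin libraries 1, 2 and 3, against 741, 766 and 724 CPM in control libraries 1, 2 and 3, with metformin library 2 inside the control range. Its log2 fold change was -0.15 (SE 0.10, 95% interval -0.38 to 0.086; edgeR adjusted p = 0.634), and -0.24 without metformin library 2. Serpinb6b had 206, 228 and 289 CPM with metformin, against 235, 252 and 229 CPM in the controls. Its log2 fold change of 0.013 (SE 0.13, 95% interval -0.30 to 0.32; edgeR adjusted p = 0.979) was -0.15 without metformin library 3, where its CPM was highest.

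**Figure D2:**
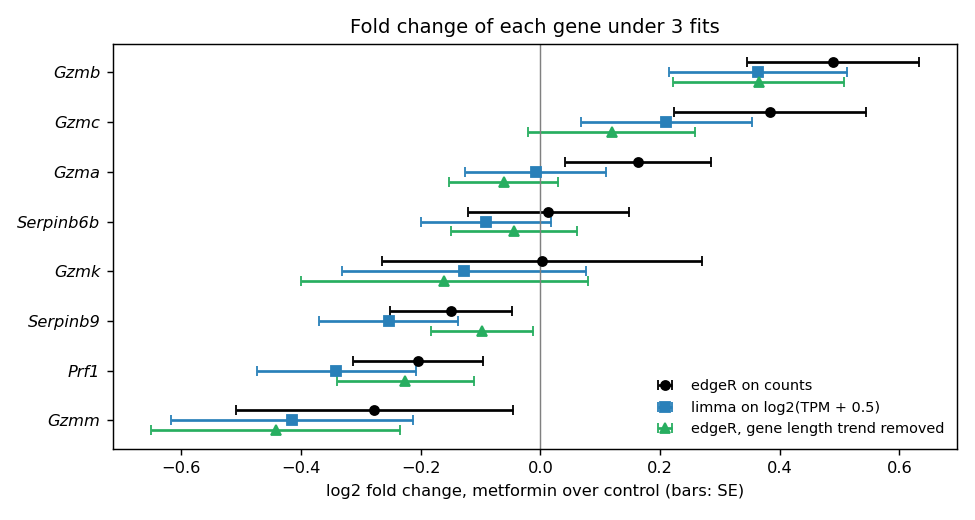
Log2 fold change of each gene, metformin over control, with its SE as a bar, from edgeR on the estimated counts, limma on log2(TPM + 0.5), and edgeR with the gene length trend removed. Gzmb is at 0.49, 0.36 and 0.37 in the 3 fits and Prf1 at -0.20, -0.34 and -0.23, while Gzma crosses from 0.16 to -0.0080 and -0.061.

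The composition of the granzyme pool was measured as the share of each granzyme in the summed TPM of all 10 granzyme genes. The sum was 13004, 15343 and 16105 TPM in metformin libraries 1, 2 and 3, against 13599.9, 15301 and 13082 TPM in control libraries 1, 2 and 3. The groups overlapped, and the granzymes made up 1.30% to 1.61% of all TPM with metformin and 1.31% to 1.53% in the controls. The mean was 14817 ± 1616 TPM with metformin and 13994 ± 1161 TPM in the controls (SD, n = 3 each), and the log2 difference was 0.080 in TPM and 0.28 in CPM.

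Within that pool granzyme B took a larger share with metformin and granzyme A a smaller one. These genes make up nearly all of the sum, so a higher Gzmb share means a lower Gzma share, and these are not separate results. The level of Gzma itself averaged 10901 ± 1232 TPM with metformin and 10930 ± 709 TPM in the controls (SD, n = 3 each). The share of Gzmb was 24.2%, 28.0% and 23.2% in metformin libraries 1, 2 and 3, against 19.9%, 22.1% and 19.8% in control libraries 1, 2 and 3. The share of Gzma was 74.5%, 70.8% and 75.5% with metformin, against 78.9%, 76.6% and 79.1% in the controls. In both shares the groups did not overlap, and the mean Gzmb share was 25.1% ± 2.55 with metformin and 20.6% ± 1.34 in the controls (SD, n = 3 each). Gzmc held 1.11% to 1.25% with metformin and 1.00% to 1.13% in the controls, and Gzmm averaged 0.0680% ± 0.0150 with metformin and 0.0958% ± 0.0111 in the controls (SD, n = 3 each), again without overlap. Levels per length depend on the length used: with estimated counts divided by the table's gene length, the Gzmb share was 31.2% ± 2.88 with metformin and 26.4% ± 1.84 in the controls (SD, n = 3 each), still without overlap. The pool is a sum over genes chosen with earlier results known, so its sums and shares were not tested.

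Ratios within a library were compared for 6 pairs of genes. They do not depend on the library's scaling, but they can depend on its gene length trend. Gzma (996 bases), Gzmb (1436 bases), Prf1 (2474 bases) and Serpinb9 (3472 bases) differ in length, and the ratios were not computed with that trend removed. Gzmb over Prf1 in TPM was 2.93, 3.70 and 4.56 in metformin libraries 1, 2 and 3, against 2.23, 2.57 and 2.00 in control libraries 1, 2 and 3. All metformin libraries were above all control libraries, and the mean log2 ratio was higher by 0.70 with metformin (exact permutation test, two-sided, p = 0.1; adjusted p = 0.12 over the 6 ratios). Without metformin library 3, which had the highest ratio, the difference was 0.55. No split of 6 libraries into 3 and 3 can give a p below 0.1, so a threshold of 0.05 cannot be reached in this design. All ratios but Gzma over Prf1 contain Gzmb, so they are not separate results. The genes were chosen with earlier results known, and no share over all pairs of genes was computed. The p-values of the ratios are therefore descriptive.

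Gzmb over Gzma was 0.325, 0.396 and 0.307 in metformin libraries 1, 2 and 3, against 0.252, 0.289 and 0.250 in control libraries 1, 2 and 3. The groups did not overlap, with a log2 difference of 0.37 (exact permutation p = 0.1, adjusted p = 0.12). This ratio restates the Gzmb and Gzma shares and is not a separate result. Gzmb over its inhibitor Serpinb9 was 10.3, 11.7 and 13.6 with metformin, against 7.65, 8.76 and 6.78 in the controls, a log2 difference of 0.62 with no overlap (exact permutation p = 0.1, adjusted p = 0.12). Gzmb over Serpinb6b also did not overlap, at 17.1 to 22.5 with metformin and 12.9 to 15.5 in the controls (log2 difference 0.45; exact permutation p = 0.1, adjusted p = 0.12).

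The other 2 ratios were weaker or rested on 1 library. Gzma over Prf1 was 9.03, 9.35 and 14.8 in metformin libraries 1, 2 and 3, against 8.87, 8.88 and 7.98 in control libraries 1, 2 and 3, a log2 difference of 0.33 (exact permutation p = 0.1, adjusted p = 0.12) that was 0.10 without metformin library 3. Gzmc over Gzmb overlapped, at 0.0395 to 0.0538 with metformin and 0.0507 to 0.0535 in the controls (log2 difference -0.15; exact permutation p = 0.4, adjusted p = 0.4). A ratio that differs shows that 2 genes moved unequally and does not show which of them moved.

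**Figure D3:**
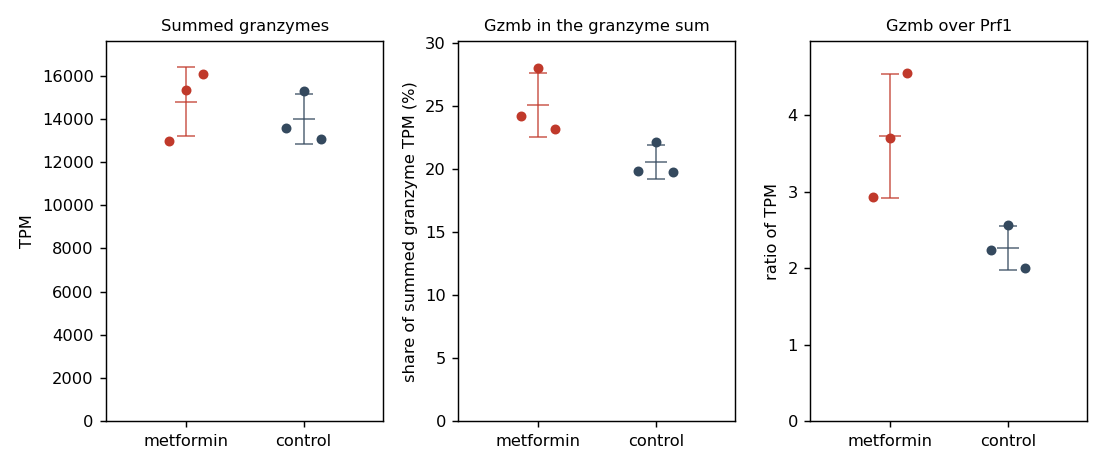
Summed granzyme TPM, share of Gzmb in that sum and ratio of Gzmb to Prf1 in TPM for each library, with the mean and SD of the 3 libraries of a group, metformin left and control right. The summed level overlaps between groups, while the Gzmb share (23.2% to 28.0% with metformin, 19.8% to 22.1% in the controls) and the ratio (2.93 to 4.56 with metformin, 2.00 to 2.57 in the controls) do not.

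The promoters of Gzmb and Prf1, the pair whose ratio differed most, are shown because both genes are known targets of T-box and RUNX transcription factors. Each line is the RefSeq window of 300 bases (GRCm38.p6), from 250 before to 50 after the annotated start site, with motif matches in capitals.
Gzmb, chr14:56262285-56262584, minus strand: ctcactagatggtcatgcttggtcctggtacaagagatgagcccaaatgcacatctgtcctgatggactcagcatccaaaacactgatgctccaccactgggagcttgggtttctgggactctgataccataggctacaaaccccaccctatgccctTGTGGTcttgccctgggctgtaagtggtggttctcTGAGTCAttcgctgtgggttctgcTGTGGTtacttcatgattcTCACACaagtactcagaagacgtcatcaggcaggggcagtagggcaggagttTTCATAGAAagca
Prf1, chr10:61297586-61297885, plus strand: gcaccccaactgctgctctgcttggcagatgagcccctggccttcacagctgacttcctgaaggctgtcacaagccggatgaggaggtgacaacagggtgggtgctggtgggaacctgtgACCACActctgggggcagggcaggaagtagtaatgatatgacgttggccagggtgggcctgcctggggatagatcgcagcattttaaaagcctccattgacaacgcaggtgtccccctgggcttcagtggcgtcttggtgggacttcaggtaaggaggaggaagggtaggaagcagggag
The motifs searched on both strands were TCACAC for T-box factors, TGTGGT for RUNX factors, TGANTCA for AP-1 and TTCNNNGAA for STAT factors, and the marked matches do not overlap each other. Gzmb held 1 T-box core at -15 to -10, 2 RUNX motifs at -93 to -88 and -34 to -29, 1 AP-1 motif at -58 to -52 and 1 STAT motif at 38 to 46 from the start site. Prf1 held 1 RUNX motif at -130 to -125 and none of the other letters. Among all 32851 windows of the RefSeq table, 14.5% held the T-box letters, 16.8% the RUNX letters, 7.81% the AP-1 letters and 8.3% the STAT letters. All 8 genes had a window, 9 in all, and of the other 6 genes Gzma, Gzmc, Serpinb9 and 1 of the 2 Gzmm windows held at least 1 RUNX motif, and Gzmk and the other Gzmm window held 2 T-box cores each. That first Gzmm window also held a STAT motif, and Serpinb6b held none of the letters. A match is a description of the letters and is not evidence of binding.

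Among transcription factors reported to act on granzyme and perforin genes, Eomes, Klf2 and Tcf7 were lower and Zfp683 was higher with metformin by DESeq2, but not by edgeR after adjustment. Of 19 such genes, all tested, edgeR called 0 over all genes. In edgeR 1 was higher and 3 were lower at an unadjusted p under 0.05 (background 5.29% higher and 5.08% lower), and the same numbers passed in DESeq2 over all genes. Eomes encodes a T-box factor that marks conventional NK cells and averaged 212 ± 4.04 CPM with metformin and 327 ± 15.2 CPM in the controls (SD, n = 3 each), or -0.63 on the log2 scale (SE 0.087; edgeR adjusted p = 0.168, DESeq2 adjusted p = 6.3e-08). Tbx21, which encodes the other T-box factor T-bet, averaged 829 ± 78.4 CPM with metformin and 914 ± 18.5 CPM in the controls (log2 fold change -0.14, SE 0.098, and -0.071 without metformin library 3). Zfp683, which encodes Hobit of resident lymphocytes, averaged 47.1 ± 5.12 CPM with metformin and 28.6 ± 3.02 CPM in the controls (log2 fold change 0.72, SE 0.13; edgeR adjusted p = 0.196, DESeq2 adjusted p = 0.0012). Klf2, a factor of lymphocyte egress, had a log2 fold change of -0.35 (SE 0.087; DESeq2 adjusted p = 0.0086), and Tcf7, named after its value was seen, -0.39 (SE 0.099; DESeq2 adjusted p = 0.031). Id2, the most abundant of the list by TPM, averaged 1560 ± 358 CPM with metformin and 1283 ± 45.2 CPM in the controls (log2 fold change 0.28, SE 0.15, and 0.074 without metformin library 3). The list median was -0.14, and -0.038 without metformin library 3, where DESeq2 called the same 4 genes. The share of all genes that DESeq2 called without that library is not given here.

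Of the genes for the granule matrix and for granzyme activation none passed the adjusted test. Of 18 genes 17 were tested, edgeR and DESeq2 each called 0, and at an unadjusted p under 0.05 edgeR gave 2 higher and 1 lower (background 5.29% higher and 5.08% lower), with a list median of 0.15. With the gene length trend removed edgeR gave 0 higher and 2 lower at that threshold (background 4.59% higher and 5.29% lower). The list median was then 0.064, and it was 0.073 without metformin library 3. Without metformin library 3 DESeq2 called 4, Cst7 and Calr higher and Gnptab and Lamp1 lower, while edgeR still called 0. For these DESeq2 calls no share over all genes is given, so the count cannot be set against a background. Lamp1, a granule membrane protein, is named here after its value was seen. Cst7, which encodes cystatin F, an inhibitor of the cathepsins that activate granzymes, averaged 306 ± 44.2 CPM with metformin and 239 ± 10.3 CPM in the controls (log2 fold change 0.35, SE 0.12; edgeR adjusted p = 0.411), and the log2 fold change was 0.22 without metformin library 3 and 0.13 with the gene length trend removed. Calr, which encodes the chaperone calreticulin, also stored in granules, averaged 683 ± 48.9 CPM with metformin and 555 ± 47.4 CPM in the controls (log2 fold change 0.30, SE 0.10; edgeR adjusted p = 0.420). Gnptab, the phosphotransferase that starts the mannose 6-phosphate tag by which enzymes are sorted to lysosomes and granules, averaged 96.9 ± 35.9 CPM with metformin and 149.9 ± 10.9 CPM in the controls (log2 fold change -0.63, SE 0.26; edgeR adjusted p = 0.467), and the log2 fold change was -0.36 (SE 0.078) without metformin library 3. The most abundant members by TPM were Nkg7, a granule membrane protein needed for degranulation, Ctsd and Ctsw, with log2 fold changes of 0.20 (SE 0.10), 0.016 (SE 0.079) and 0.22 (SE 0.11). These were 0.084, 0.0018 and 0.11 without metformin library 3, and Nkg7 and Ctsd changed sign with the gene length trend removed. Nkg7 averaged 8996 ± 766 TPM with metformin and 8727 ± 102 TPM in the controls, the level closest to that of Gzma in this list.

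Of 22 genes for granule release, 21 were found by name and 20 tested. Neither edgeR nor DESeq2 called any over all genes (0 each), and at an unadjusted p under 0.05 edgeR gave 3 higher and 0 lower (background 5.29% higher and 5.08% lower), with a list median of -0.011. Without metformin library 3 edgeR gave 6 higher and 0 lower at that threshold (background 4.90% higher and 6.51% lower), and DESeq2 called 1, Rab27a, a GTPase of granule docking named after its value was seen. For that DESeq2 call no share over all genes is given. Sytl1, an effector of RAB27A in granule docking, averaged 18.9 ± 0.504 CPM with metformin and 13.6 ± 1.49 CPM in the controls (log2 fold change 0.47, SE 0.15; edgeR adjusted p = 0.372). The vesicle fusion proteins Vamp8 and Vamp2 had log2 fold changes of 0.36 (SE 0.13) and 0.31 (SE 0.12), and that of Vamp8 was 0.23 without metformin library 3. Coro1a, an actin regulator and the most abundant gene of the list, had a log2 fold change of -0.022 (SE 0.087), and Rab7, a GTPase of late endosomes, 0.019 (SE 0.085), which changed sign in both alternatives.

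Relatives outside the 8 genes were sparse. Of 14 other granzymes and proteases of related loci only 4 passed the filter on low counts, and edgeR called 0 of them over all genes. DESeq2 gave an adjusted p for Cma1 alone and called 0. At an unadjusted p under 0.05 there were 0 higher and 2 lower, Cma1 and Mcpt8 (background 5.29% higher and 5.08% lower). Without metformin library 3 Cma1 alone was left at that threshold and DESeq2 called it, and with the gene length trend removed Ctsg joined the 2. For the DESeq2 call of Cma1 no share over all genes is given. Cma1, a chymase known from mast cells, was not sparse: it averaged 284 ± 10.6 TPM with metformin and 375 ± 17.7 TPM in the controls, above Gzmc in both groups (log2 fold change -0.25, SE 0.095; edgeR adjusted p = 0.457), and the log2 fold change was -0.43 with the gene length trend removed. Mcpt8, a granzyme-like protease of basophils, had 19 reads over the metformin libraries and 75 over the control libraries, and Ctsg, cathepsin G of neutrophils, had 52 over the metformin libraries and 252 over the control libraries, where control library 1 also had the highest sum of neutrophil markers (156 CPM, against 13.5 to 40.7 CPM with metformin and 22.6 and 26.0 CPM in the other controls). Of 9 basophil and mast cell markers, Kit, a receptor that other cells also carry, made up most of the summed level, at 41.5 ± 15.7 CPM with metformin and 87.3 ± 20.5 CPM in the controls (SD, n = 3 each). Cpa3, a mast cell carboxypeptidase, averaged 6.43 ± 3.24 CPM with metformin and 6.48 ± 0.539 CPM in the controls, and 2 of the 8 markers tested were lower at an unadjusted p under 0.05, Kit and Mcpt8 itself. The sum of the 9 was 42.8 to 67.5 CPM with metformin and 95.1 to 140.2 CPM in the controls, with 3 of them under a mean of 1 CPM and none at 0 in all libraries, and its part in the values of Cma1 and Mcpt8 was not tested.

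Of 19 other intracellular serpins 8 were tested. The edgeR test called 0 over all genes and gave 0 at an unadjusted p under 0.05, DESeq2 called 0 of the 5 for which it gave an adjusted p, and the list median was -0.11. Serpinb9b, a close copy of Serpinb9, was the most abundant at 69.8 ± 7.38 TPM with metformin and 85.0 ± 5.70 TPM in the controls (log2 fold change -0.19, SE 0.093). Serpinb6a had a log2 fold change of 0.17 (SE 0.14), Serpinb1a -0.15 (SE 0.24) and Serpinb2 0.83 (SE 0.42). Without metformin library 3 these were 0.075, -0.28 and 0.31.

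Markers of several cell types differed between the groups in their summed level. NK markers were high throughout, and Ncr1, the NK receptor NKp46, averaged 1424 ± 147 CPM with metformin and 1400 ± 62.8 CPM in the controls (SD, n = 3 each). Of the 8 NK markers 1 was higher, Tyrobp, and 1 lower, Eomes, at an unadjusted p under 0.05 (background 5.29% higher and 5.08% lower). Tyrobp averaged 1284 ± 141 CPM with metformin and 1087 ± 4.38 CPM in the controls. The sum of 10 ILC1 markers was 1604 to 1737 CPM with metformin and 1052 to 1154 CPM in the controls, with 10 of 10 higher at an unadjusted p under 0.05, where the background was 5.29% of all genes higher and 5.08% lower. The sum of 9 markers of conventional NK cells was 2408 to 3075 CPM with metformin and 4079.9 to 4099 CPM in the controls, with 8 of 9 lower. T cell markers summed to 859 to 1029.9 CPM with metformin and 549 to 653 CPM in the controls, with 5 of 11 higher. These were Cd3e (log2 fold change 1.50), Cd8a (1.38), Cd3d (1.14), Trbc2 (0.63) and Trbc1 (0.50). NK cells also transcribe some T cell genes, such as Trbc1 and Cd3d. Trbc1 and Trbc2 made up most of the sum, at 412 and 279 CPM with metformin and 292 and 180 CPM in the controls. Cd4, Cd5, Cd6, Cd8b1, Trac and Trdc overlapped between the groups. None of these markers was at 0 in all libraries, and all 3 sums separated the groups. So did the sums for basophils or mast cells, plasmacytoid dendritic cells, dividing cells and Kupffer cells or macrophages. The Gzmb share and the Gzmb to Prf1 ratio separated the groups too, which does not single out any of these sums. Eomes and Klf2 are also in the list for conventional NK cells, Zfp683 in that for ILC1, Nkg7 and again Eomes in that for NK cells and Mcpt8 in that for basophils. None of the 8 genes is in a marker list. These lists were chosen with earlier results known, and their part in the granzyme values was not tested.

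Markers of dividing cells summed to 163 to 200.4 CPM with metformin and 256 to 451 CPM in the controls, with 6 of 8 lower at an unadjusted p under 0.05 (background 5.08%). Kupffer cell or macrophage markers summed to 31.1, 25.5 and 87.0 CPM in metformin libraries 1, 2 and 3, against 6.96, 22.7 and 17.6 CPM in control libraries 1, 2 and 3, with 4 of the 6 tested higher (background 5.29%) and metformin library 3 far highest. Plasmacytoid dendritic cells, which can also make granzyme B, had 6 markers with a sum of 104 to 122 CPM with metformin and 87.0 to 99.2 CPM in the controls, and hepatocyte markers summed to 70.5 to 308 CPM with metformin and 65.5 to 152 CPM in the controls. The sum for plasmacytoid dendritic cells separated the groups and that for hepatocytes did not. Each of the 6 plasmacytoid markers overlapped between the groups, and 1 was higher at an unadjusted p under 0.05 (background 5.29%), Klk1. It averaged 46.6 CPM with metformin and 30.8 CPM in the controls, and Tcf4 went the other way, at 34.0 CPM and 38.8 CPM. The part of these cells in the granzyme values was not tested.

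**Figure D4:**
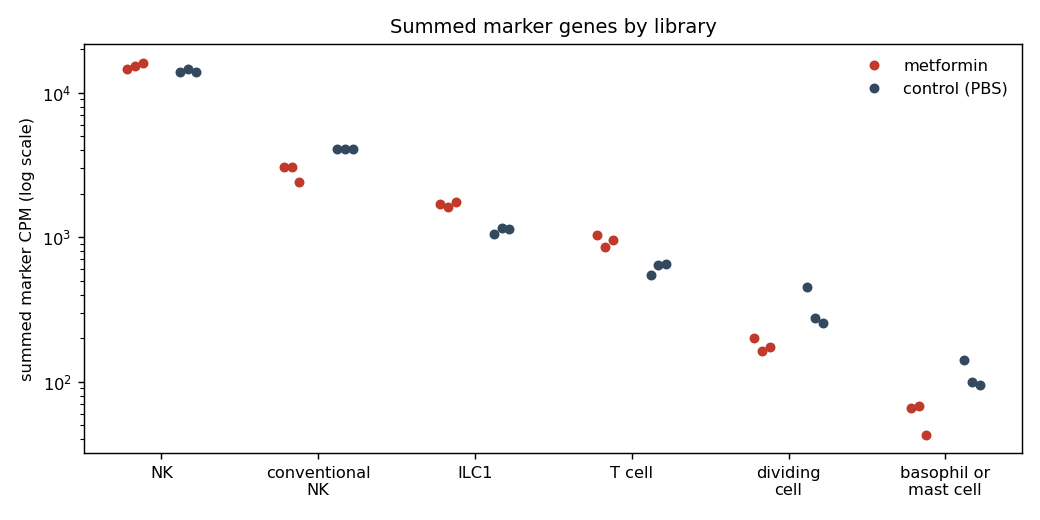
Summed CPM (log axis) of marker genes of 6 cell types or states in each library, 1 point per library, metformin left and control right. The sums for ILC1 and T cell markers are higher in every metformin library than in every control library. The sums for conventional NK cells, dividing cells and basophils or mast cells are lower, while the sum for NK markers overlaps between groups. Single markers within a list can overlap where its sum does not.

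Genes with the most similar pattern were sought for Gzma, Gzmb and Prf1 among 4583 protein-coding genes with a mean of at least 50 CPM, as the smallest root mean square distance between centred log2 CPM values over the 6 libraries. For Gzmb these were Cish, a feedback inhibitor of cytokine signalling (distance 0.082), Sdf2l1, an endoplasmic reticulum protein (0.093), and Abcb9, a lysosomal peptide transporter (0.10). Cish averaged 195 ± 20.3 CPM with metformin and 139.5 ± 10.4 CPM in the controls (SD, n = 3 each). For Prf1 they were Tob2, Eloa and Gimap8, at distances of 0.016, 0.021 and 0.021, and for Gzma they included Ndufb5 and Card19, at distances of 0.029 and 0.033. With 6 libraries and 4583 genes, closeness of pattern is a description only.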

How the data were processed

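RNA from mouse liver NK cells was sequenced with SMART-seq mRNA libraries, per the labels' protocols. Per the submitters' processing notes DRAGEN was used, and GRCm39 and mm10 are named without saying which step used which. No source used here gives the annotation, strand setting or filters. The authors deposited 1 table with estimated counts (not whole, not normalized) and TPM (which sum to 1 fixed total in each library) for 55414 genes, and 0 columns of values were left without a sample. Of the 8 genes 0 have the position they have in GENCODE M21, so table coordinates are not those of GRCm38.

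Estimated counts were rounded and tested with edgeR 4.0.16 (quasi-likelihood, TMM, filterByExpr, no covariate) in R 4.3.3, fitted on 15527 genes, with limma 3.58.1 and DESeq2 1.42.0 as alternatives. TPM used a pseudocount of 0.5 on the log2 scale; the length trend was a lowess (span 0.3) per library. The tests were tried on simulated data. No 2 libraries of a group agreed within counting noise (chi-square over its degrees of freedom 14.9 to 63.7). The sources used here mention no molecular identifiers and no batch. Precision follows from 22152167 to 30161214 reads in a library and from the spread of 3 libraries a group. TPM per read imply other lengths than the table's, so levels between genes depend on the authors' lengths. Members and lists were chosen with earlier results of these data known. Named genes were the 8 members, per list the 3 with the smallest p and the 3 highest in TPM, and the 3 genes most alike in pattern to Gzma, Gzmb and Prf1; 1 gene that this rule selects is not reported here.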

Additional observations from a re-analysis of the deposited data

How the results depend on the processing

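Over 17 alternatives the log2 fold changes of Gzmb (0.36 to 0.62), Gzmc (0.12 to 0.49), Prf1 (-0.34 to -0.11), Serpinb9 (-0.25 to -0.098) and Gzmm (-0.45 to -0.11) kept their direction, and no member passed an adjusted p of 0.05 in any of them. Gzma turned to -0.0080 on log2 TPM and -0.061 with the length trend removed; leaving out 1 library gave 0.023 to 0.24. Gzmk turned to -0.0041 with DESeq2, -0.026 with limma-voom, -0.0038 with DESeq2 size factors in edgeR, -0.015 with no filter, -0.13 on log2 TPM, -0.16 with the length trend removed and -0.022 with the replicate number as a block, and ran from -0.22 to 0.12 with 1 library left out; it was not tested at 5 CPM in 3 libraries. Serpinb6b turned to -0.00014 with limma-voom, -0.0038 with no filter, -0.090 on log2 TPM, -0.045 with the length trend removed and -0.00067 with the block, and ran from -0.15 to 0.11 with 1 library left out. For these turns around 0 the cause was not tested. The number of genes called was 299 with DESeq2, 1 with no filter, 1 with the length trend removed, 3 with the replicate block and 0 to 1 with 1 library left out. Same-numbered libraries deviated together at correlations of 0.18, 0.099 and 0.16, each control library highest with its own number, as a hint from the data and not the design; with the block Gzmb was at 0.49 (edgeR adjusted p = 0.331). The log2 difference of summed granzymes was 0.28 in CPM, and 0.017 to 0.17 with 1 library left out. Counts per table length, added after the data were seen, gave 0.17 for that sum. The 6 ratios kept their direction in all 8 alternatives each, none of which removed the gene length trend. Of the list genes named, computed after the data were seen, Nkg7 turned to -0.067, Ctsd to -0.039 and Rab7 to -0.034 with the length trend removed, and Rab7 to -0.0042 without metformin library 3. Gzmk and Gzmm had 84 to 299 reads per library, and counting error was not separated from the spread between libraries.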
